A study of Saccharomyces cerevisiae with 32 samples.

Results

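The hexose transporter genes HXT1 to HXT7 of the yeast Saccharomyces cerevisiae were followed through 32 RNA sequencing libraries. The rows were chosen by gene name alone, with no measured value in the rule. Of the 7 genes named, 5 have a row among the 6328 rows of the deposited table: HXT2 (YMR011W), HXT3 (YDR345C), HXT4 (YHR092C), HXT6 (YDR343C) and HXT7 (YDR342C). HXT1 and HXT5 were not analysed here. All 5 rows passed the filter on low values, a mean of at least 1 RPKM (reads per kilobase of gene, scaled to the total of the library), as did 5801 of the 6328 rows in all.

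The libraries come from 3 related strains. Y22-3 is a stress-tolerant strain that was engineered with the bacterial xylose isomerase CpXylA, with XYL3 and with TAL, and Y127 was evolved from it on xylose with oxygen and carries null alleles of ISU1 and HOG1. Y128 was evolved from Y127 without oxygen, has lost GRE3 and IRA2 as well, and ferments xylose anaerobically. Cultures at 30 °C had 2% glucose or 2% xylose added to a rich medium and were kept with oxygen, in shaken flasks, or without it, in an anaerobic chamber, which gives 12 groups of 2 libraries. Another 8 libraries, 1 for each condition, cover 2% galactose and 2% sorbitol, with and without oxygen, for Y22-3 and for Y128. The cultures of Y22-3 and Y127 in anaerobic xylose, and all cultures in sorbitol, are described as not growing. In anaerobic xylose, growth and strain therefore cannot be told apart wherever Y128 is compared with another strain. By the paper, Y22-3 was unable to metabolize xylose and Y127 respires it with oxygen, although all aerobic xylose cultures are described as growing. In aerobic xylose, use of the sugar and strain cannot be told apart wherever Y22-3 is compared with another strain. The same 3 transgenes are in every strain, and the glucose and xylose cultures were started from saturated aerobic cultures in glucose. By the paper's methods, Y22-3 and Y127 in anaerobic xylose were inoculated at about the density at which the other cultures were collected. They were then incubated for the same time as the others. Inoculation therefore differed there as growth did.

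Hxt proteins carry hexoses across the plasma membrane by facilitated diffusion, and several of them also carry xylose, for which yeast has no transporter of its own. The family divides the work by affinity. Hxt1 and Hxt3 have low affinity and serve when glucose is plentiful, Hxt2 and Hxt4 have intermediate to high affinity and serve when glucose is scarce, and Hxt6 and Hxt7 have high affinity and are repressed by much glucose. The genes are controlled by the membrane glucose sensors Snf3 and Rgt2, which lead to the loss of Mth1 and Std1 and so release the repressor Rgt1 from the promoters, and by the repressors Mig1 and Mig2, which act when glucose is abundant.

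The sequences show which rows could be told apart by the reads. In the RefSeq genome of strain S288C (assembly R64), which is not the Y22-3 genome that the reads were mapped to, HXT7, HXT6 and HXT3 lie on the minus strand of chromosome IV, HXT4 on the minus strand of chromosome VIII and HXT2 on the plus strand of chromosome XIII. The coding sequences of HXT6 and HXT7 are both 1713 bases long and differ at 3 positions, T1632C, G1666A and T1677C, counted from the first base of the start codon with the base of HXT6 first. The last 120 bases of both, positions 1594 to 1713, hold all 3 differences, shown in capitals.
HXT6: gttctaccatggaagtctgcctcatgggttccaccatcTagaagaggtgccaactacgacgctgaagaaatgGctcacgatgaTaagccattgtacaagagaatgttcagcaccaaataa
HXT7: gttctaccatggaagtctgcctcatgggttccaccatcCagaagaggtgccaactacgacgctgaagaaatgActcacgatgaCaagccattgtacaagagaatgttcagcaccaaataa
Of the 1614 windows of 100 bases, the read length, 1532 (94.9%) are identical between the genes, and 82 hold a difference. A read from most of either gene therefore fits both in this reference. How the authors' counting treated such reads, and whether the copies in Y22-3 differ as these do, was not tested, so the results for HXT6 and HXT7 are followed by that for their summed RPKM. HXT4 is 82.4% and 82.5% identical to HXT6 and HXT7, with no shared run over 45 bases, and HXT3 is 81.3% and 81.5% identical to them, with a longest shared run of 149 bases. Some reads of 100 bases could therefore fit HXT3 as well as HXT6 or HXT7 in this reference. Their part in the low HXT3 values on xylose, and in the HXT6 and HXT7 values on glucose where HXT3 was high, was not tested. HXT2 is 68.4 to 70.0% identical to the others.

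The upstream sequences of HXT6 and HXT7 differ far more than their coding sequences. They are 96.0% identical over the 100 bases before the start codon and 60.1% over 500 bases. The 1000 bases before the start codon were searched on both strands for CGGANNA, the core of the site bound by Rgt1, and for AGGGG, the stress response element bound by Msn2 and Msn4, with overlapping matches counted. HXT3 has 9 matches to CGGANNA, HXT2, HXT4 and HXT6 have 3 each and HXT7 has 2. Of the 6002 windows of this length in the reference, 66.6% hold at least 1 match, 11.2% hold at least 3, and HXT3 is the only 1 with at least 9. HXT6 has 5 matches to AGGGG and HXT7 has 4, HXT3 and HXT4 have 1 each, and none was found for HXT2, beside at least 1 in 55.0% of windows, at least 4 in 2.2% and at least 5 in 0.6%. The stretches of 200 bases, at least 150 bases before the start codon, with the most matches to CGGANNA are shown for HXT3, which changed most downward between sugars, and HXT2, which differed most between strains, with the matches on either strand in capitals (6 and 3). The HXT3 stretch runs from 538 to 339 bases before the start codon and the HXT2 stretch from 580 to 381. A match is only a run of letters, and binding was not measured.
HXT3: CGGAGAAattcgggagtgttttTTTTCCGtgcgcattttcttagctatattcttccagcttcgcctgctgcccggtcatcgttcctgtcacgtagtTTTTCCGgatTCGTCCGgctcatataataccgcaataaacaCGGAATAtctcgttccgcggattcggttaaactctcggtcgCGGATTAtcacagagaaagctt
HXT2: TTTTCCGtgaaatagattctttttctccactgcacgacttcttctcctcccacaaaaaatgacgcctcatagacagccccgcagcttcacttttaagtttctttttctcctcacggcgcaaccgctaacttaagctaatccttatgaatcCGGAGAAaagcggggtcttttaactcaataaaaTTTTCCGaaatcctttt

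All values are log2 RPKM as deposited. Library totals, recovered from the lowest values by taking the count of each gene to have been raised by 1 read, ranged from 7.53 to 24.1 M (mega) reads. With these totals the lowest value of the 5 rows, HXT4 of Y22-3 in aerobic galactose, stands for about 21 reads, and the highest, HXT7 of Y22-3 in anaerobic sorbitol, for about 536043. GAL1, the galactokinase gene induced by galactose, was at 10.42 to 12.28 in the 4 galactose libraries and at most 3.77 in the other 28, and ANB1, a gene expressed without oxygen, was at 8.91 to 9.53 in anaerobic glucose and at most 3.77 in aerobic glucose. The median of the genes tested was 3.45 and 3.19 in the Y22-3 anaerobic xylose libraries, 2.06 and 2.73 in anaerobic sorbitol, and 3.82 to 4.60 in the other 22 duplicated libraries. Values are relative to the library total, so fewer transcripts per cell and a change in all other transcripts cannot be told apart, and changes of the 5 rows and of the sum of HXT6 and HXT7 that involve Y22-3 in anaerobic xylose are also given with every library centred on its median. A change was tested with limma in a single model of the 12 groups, adjusted by Benjamini-Hochberg over the 5801 genes and called at an adjusted p under 0.05. Since every group holds 2 libraries, the standard error (SE) of a change between groups was the same in every comparison: 0.36 for HXT2, 0.24 for HXT3, 0.36 for HXT4, 0.30 for HXT6 and 0.27 for HXT7.

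HXT3, a low-affinity transporter, was high on glucose and low on xylose. In aerobic glucose it was at 9.04 and 8.94 (Y22-3), 8.88 and 8.84 (Y127) and 8.73 and 8.73 (Y128). In anaerobic glucose it was at 11.20 and 11.81, 11.52 and 11.60, and 11.33 and 11.52 in the same order of strains. It was the highest of the 5 rows in all 6 glucose groups by its mean, although in Y127 with oxygen its libraries overlapped those of HXT2. On xylose with oxygen it was at 3.11 and 3.66 (Y22-3), 2.29 and 2.04 (Y127) and 2.54 and 2.98 (Y128). On xylose without oxygen it was at 3.96 and 3.92, 3.33 and 3.67, and 3.83 and 4.61. No glucose library overlapped a xylose library, and among the glucose groups those without oxygen all lay above those with it. In anaerobic glucose the Y22-3 libraries spanned those of the other strains.

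HXT2, which serves when glucose is scarce, was high on glucose, and its level on xylose differed by strain. On glucose with oxygen the 3 strains overlapped, at 8.51 and 8.44 (Y22-3), 8.25 and 8.87 (Y127) and 8.45 and 8.46 (Y128). On glucose without oxygen Y128 stood apart at 10.21 and 10.23, against 9.10 and 8.06 in Y22-3 and 8.87 and 8.54 in Y127. On xylose with oxygen it was at 9.55 and 10.25 (Y22-3), 6.57 and 7.90 (Y127) and 9.53 and 9.46 (Y128), so that the Y127 libraries were the low ones and differed most from each other. On xylose without oxygen it was at 5.56 and 5.11 (Y22-3), 5.77 and 6.28 (Y127) and 10.76 and 11.12 (Y128). Anaerobic xylose therefore holds the highest of the 12 groups for HXT2, Y128, as well as the lowest, Y22-3.

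HXT4, which also serves when glucose is scarce, ranked 4 or 5 of the 5 rows in all 12 groups. On glucose with oxygen it was at 4.20 and 4.40 (Y22-3), 5.19 and 5.80 (Y127) and 2.26 and 2.53 (Y128), and without oxygen at 4.05 and 5.21, 5.36 and 5.73, and 4.66 and 5.21. On xylose with oxygen it was at 3.63 and 4.20 (Y22-3), 1.59 and 2.76 (Y127) and 5.15 and 4.94 (Y128). On xylose without oxygen it was at 2.69 and 2.46, 3.23 and 3.32, and 6.54 and 7.15. As for HXT2, the Y128 libraries in anaerobic xylose were the highest of all 24 and lay apart from every other group, and the Y127 libraries in aerobic xylose were the lowest by their mean. Across the 32 libraries, HXT2 and HXT4 had a Pearson correlation of 0.71, as a description of libraries that share their depth and growth conditions.

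Of HXT6 and HXT7, the high-affinity pair, 1 was the highest row in every xylose group. On xylose with oxygen HXT7 was at 12.02 and 11.92 (Y22-3), 12.57 and 12.01 (Y127) and 12.20 and 12.26 (Y128), the highest row in each strain. HXT6 was then at 8.35 and 8.23 (Y22-3), 11.61 and 11.52 (Y127) and 9.54 and 9.96 (Y128). The strains lay apart in HXT6, whereas for HXT7 the Y127 libraries spanned those of Y128 and overlapped those of Y22-3. On xylose without oxygen HXT6 was the higher, at 10.66 and 10.71 (Y22-3), 12.93 and 13.03 (Y127) and 11.81 and 11.69 (Y128). HXT7 was at 10.16 and 9.69, 11.41 and 11.55, and 10.38 and 10.16.

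On glucose both genes were far lower. With oxygen HXT6 was at 2.96 and 2.79 (Y22-3), 2.94 and 2.98 (Y127) and 2.75 and 2.61 (Y128). HXT7 was at 6.44 and 6.01 in Y22-3 and 6.48 and 7.24 in Y127 but at 2.92 and 2.83 in Y128, which stood apart as the low strain. Without oxygen HXT6 was at 6.13 and 7.47, 7.43 and 8.28, and 8.19 and 8.46 in Y22-3, Y127 and Y128. HXT7 was at 4.35 and 5.17, 5.23 and 4.93, and 4.41 and 4.65, so that the Y22-3 libraries overlapped those of both other strains, and Y127 lay above Y128.

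**Figure D1:**
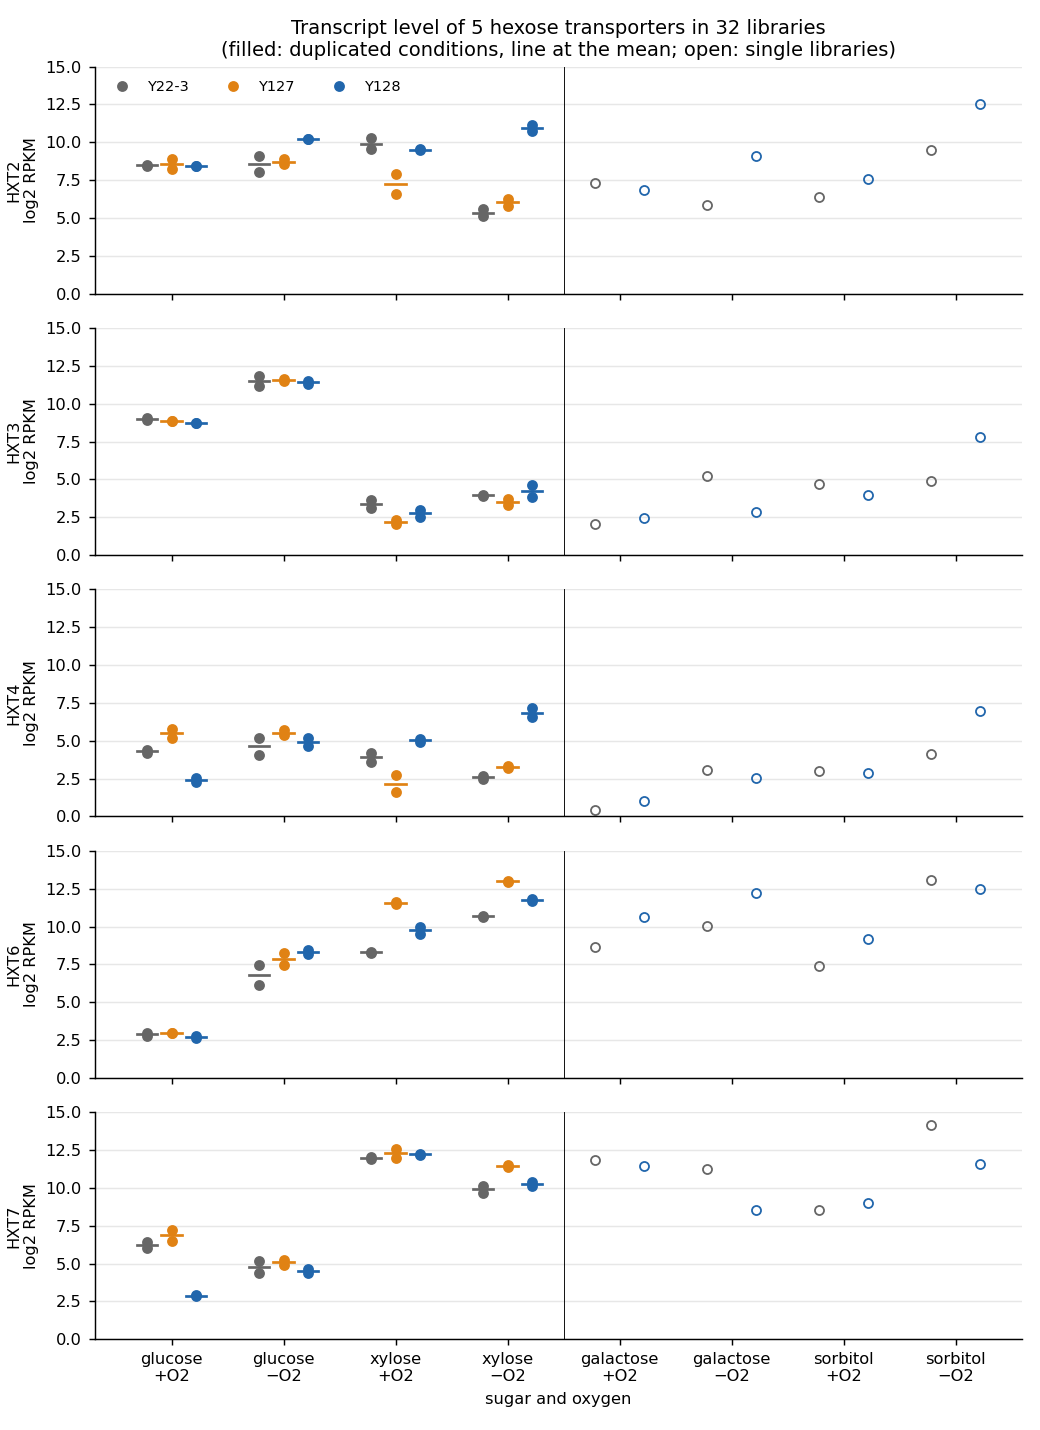
Level of each gene (log2 RPKM, vertical axis) in each sugar with (+O2) and without (−O2) oxygen, coloured by strain. Filled points are the 24 duplicated libraries with a line at the mean of 2, and open points are the 8 single libraries. HXT3 is high on glucose, HXT6 and HXT7 on xylose and galactose, and HXT2 and HXT4 are high in Y128 without oxygen on xylose and on sorbitol.

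Summed over the 5 rows, the RPKM was 795 to 1024 in the 3 aerobic glucose groups, 3560 to 4319 in anaerobic glucose and 5343 to 8289 in aerobic xylose. In anaerobic xylose it was 2693 for Y22-3, 11035 for Y127 and 6802 for Y128 (all means of 2 libraries). On glucose HXT3 and HXT2 together made up most of the sum. HXT3 was 52.6% (Y22-3), 46.0% (Y127) and 53.6% (Y128) with oxygen, and 82.8%, 80.2% and 63.6% without it. On xylose HXT6 and HXT7 made up most of it, and HXT3 at most 0.570%. HXT7 was 75.4%, 60.9% and 74.6% with oxygen in Y22-3, Y127 and Y128, and HXT6 was 61.3%, 73.3% and 50.7% without. The share of HXT2 in anaerobic xylose was 1.51% in Y22-3 and 0.596% in Y127, and 29.1% in Y128. The shares are of RPKM, so they compare levels per length, and reads shared by HXT6 and HXT7 could move any of them. HXT1 and HXT5 are not in the sum.

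**Figure D2:**
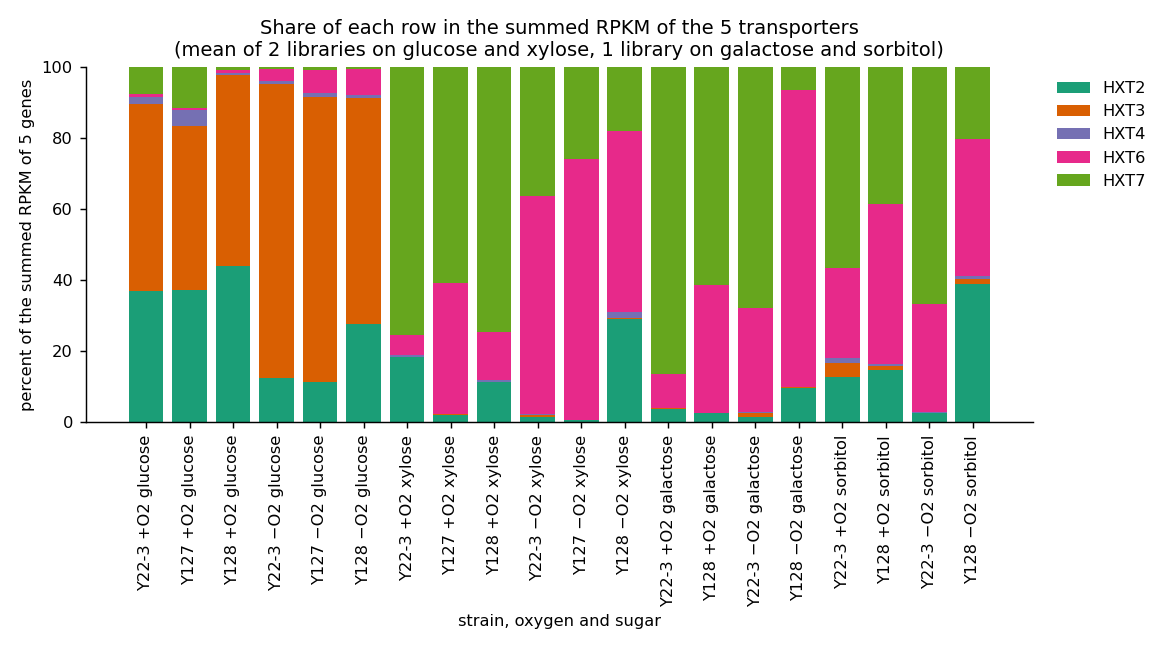
Percent of the summed RPKM of the 5 rows (vertical axis) taken by each gene in each strain, oxygen condition and sugar, as the mean of 2 libraries on glucose and xylose and 1 library on galactose and sorbitol. HXT3 and HXT2 fill most of the bars on glucose, and HXT6 and HXT7 those on the other sugars. In Y128 without oxygen HXT2 is at 29.1% on xylose and at 38.9% on sorbitol.

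The change of sugar with oxygen present was compared first. In Y22-3, 4 of the 5 rows were called, 3 higher and 1 lower on xylose, beside 53.2% of all genes tested. All 5 were called for Y127 (2 higher and 3 lower, beside 39.8%). All 5 were also called for Y128 (4 higher and 1 lower, beside 42.9%). HXT3 fell, with log2 changes of -5.60 for Y22-3, -6.69 for Y127 and -5.97 for Y128 (adjusted p at most 1.64e-13, limma). HXT7 rose by 5.75, 5.43 and 9.35 and HXT6 by 5.41, 8.60 and 7.07 (adjusted p at most 7.56e-12). These HXT3, HXT6 and HXT7 changes were called in each strain. HXT2 and HXT4 went separate ways by strain. HXT4 rose by 2.65 in Y128 (adjusted p = 5.53e-06, limma), fell by 3.32 in Y127 (adjusted p = 5.02e-07) and was at -0.38 in Y22-3 (adjusted p = 0.387). HXT2 rose by 1.42 in Y22-3 (adjusted p = 0.00249) and by 1.05 in Y128 (adjusted p = 0.0252) and fell by 1.32 in Y127 (adjusted p = 0.00730). The HXT2 calls were the weak ones. That in Y22-3 was lost without xylose library B (1.07, adjusted p = 0.0514), that in Y127 without xylose library A (-0.66, adjusted p = 0.152) or without 1 of its glucose libraries (-1.01, adjusted p = 0.0911), and that in Y128 without any 1 of its 4 libraries (adjusted p from 0.0764 to 0.101) and after centring (0.96, adjusted p = 0.0677). The median change of the 5 rows was 1.42, -1.32 and 2.65 in Y22-3, Y127 and Y128, beside 0.11, -0.22 and 0.02 over all genes.

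Without oxygen, 5, 5 and 4 rows were called in Y22-3, Y127 and Y128, beside 86.6%, 50.2% and 38.8% of all genes. In Y22-3 and in Y127, 2 rose and 3 fell, and in Y128 3 rose and 1 fell. HXT3 fell, with log2 changes of -7.57, -8.06 and -7.20 (adjusted p at most 4.66e-14, limma), and HXT7 rose by 5.17, 6.40 and 5.74 and HXT6 by 3.89, 5.13 and 3.43 (adjusted p at most 3.42e-08). HXT2 fell, with changes of -3.25 in Y22-3 and -2.68 in Y127 (adjusted p = 4.80e-08 and 4.23e-06, limma) and was at 0.72 in Y128 (adjusted p = 0.121). In Y128 it was called when the compared libraries were fitted alone (adjusted p = 0.0180, limma). HXT4 changed by -2.06 and -2.27 in Y22-3 and Y127 and rose by 1.91 in Y128 (adjusted p = 2.11e-05, 2.81e-05 and 0.000323). In Y22-3 the median of all genes was lower on xylose by 1.39. After centring, HXT2 was at -2.01 (adjusted p = 0.000326) and HXT4 at -0.82 (adjusted p = 0.0940, no longer called), and HXT3, HXT6 and HXT7 were at -6.33, 5.12 and 6.40. The median of the 5 rows was -2.06, -2.27 and 1.91, beside -1.39, -0.10 and -0.18 over all genes. The summed RPKM of HXT6 and HXT7 rose on xylose in every strain, by 5.72, 6.02 and 8.68 with oxygen and by 4.24, 5.35 and 3.77 without it (adjusted p at most 1.77e-08). After centring it rose by 5.48 in Y22-3 without oxygen.

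**Figure D3:**
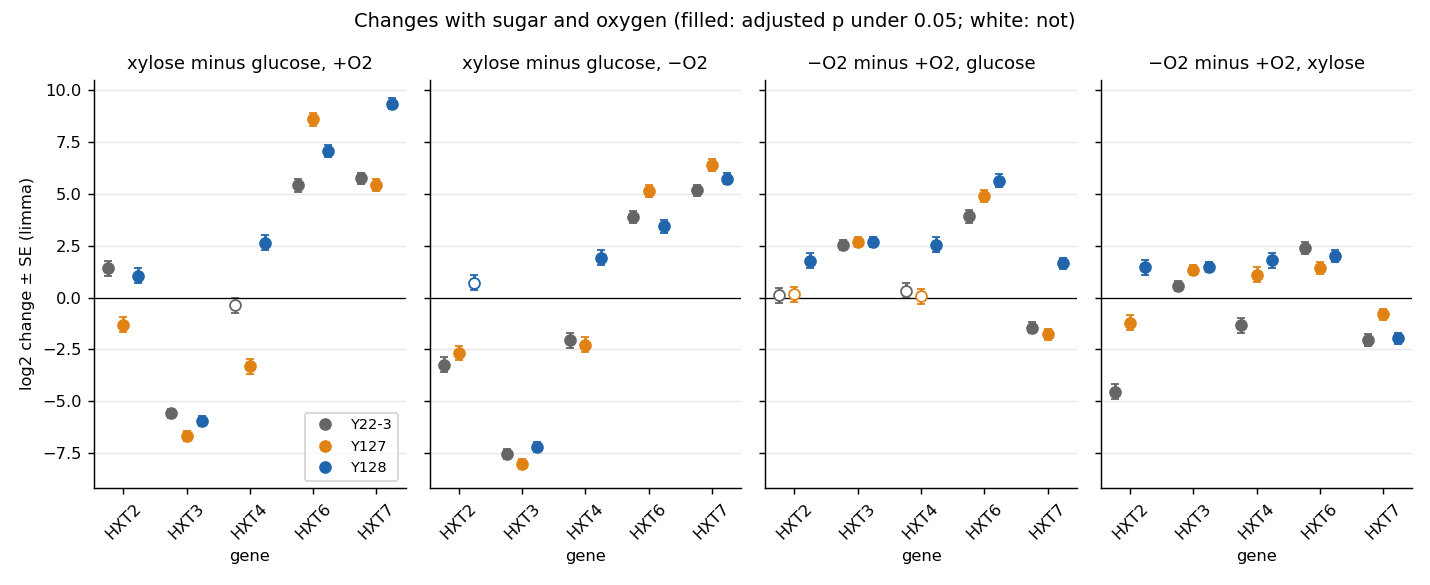
Change of each gene (log2, vertical axis, bars are the SE) between xylose and glucose with and without oxygen, and between anaerobic and aerobic cultures on glucose and on xylose, coloured by strain. Filled points have an adjusted p under 0.05 and white points do not. On xylose without oxygen against with oxygen, HXT2 is at -4.56 in Y22-3, -1.21 in Y127 and 1.45 in Y128.

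The loss of oxygen on glucose called 3 rows in Y22-3, 3 in Y127 and 5 in Y128, beside 65.4%, 68.2% and 68.4% of all genes. HXT3 was higher without oxygen by 2.52, 2.70 and 2.69 in Y22-3, Y127 and Y128 (adjusted p at most 2.95e-08, limma), and HXT6 by 3.92, 4.89 and 5.64 (adjusted p at most 9.84e-10). HXT7 was lower in Y22-3 (-1.46, adjusted p = 9.72e-05) and in Y127 (-1.78, adjusted p = 8.31e-06), and higher by 1.65 in Y128 (adjusted p = 1.99e-05). The summed RPKM of the pair was higher in each strain, by 0.76, 1.11 and 4.64 (adjusted p = 0.0403, 0.00389 and 9.40e-11), so that the lower HXT7 in Y22-3 and Y127 holds for that row and not for the pair. After centring the sum in Y22-3 was at 0.48 (adjusted p = 0.193, no longer called). HXT2 and HXT4 rose in Y128 by 1.77 and 2.54 (adjusted p = 0.000229 and 3.18e-06, limma). In Y22-3 and Y127 they changed by 0.05 to 0.33, with overlapping libraries and adjusted p from 0.426 to 0.913. HXT4 of Y22-3 was called without anaerobic library A (0.91, adjusted p = 0.0455). Over the 5 rows the median was 0.33, 0.15 and 2.54, beside 0.15, 0.02 and 0.18 over all genes.

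On xylose all 5 rows were called for oxygen in each strain, beside 84.4%, 57.1% and 47.3% of all genes in Y22-3, Y127 and Y128. HXT2 fell in Y22-3 (-4.56, adjusted p = 3.18e-10, limma) and in Y127 (-1.21, adjusted p = 0.00741), and rose by 1.45 in Y128 (adjusted p = 0.00285). HXT4 fell by 1.34 in Y22-3 (adjusted p = 0.00180) and rose by 1.10 in Y127 and by 1.80 in Y128 (adjusted p = 0.0127 and 0.000373). HXT6 rose by 2.40, 1.42 and 2.00 and HXT7 fell, with changes of -2.05, -0.81 and -1.96 (adjusted p at most 0.0152). The pair as a sum was at -0.72 in Y22-3 (adjusted p = 0.0388), which centring turned to 0.43 (adjusted p = 0.225), and at 0.44 and -0.28 in Y127 and Y128 (adjusted p = 0.238 and 0.489). HXT3 rose by 0.55, 1.33 and 1.46 (adjusted p = 0.0402, 9.75e-05 and 4.91e-05).

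Several of these calls rest on few libraries or on the scale. The median of all genes in Y22-3 changed by -1.28, beside 0.13 and -0.11 in Y127 and Y128, and that of the 5 rows by -1.34, 1.10 and 1.46. After centring, HXT2 of Y22-3 was at -3.41 (adjusted p = 1.11e-06), HXT4 at -0.19 (adjusted p = 0.702), HXT3 at 1.70, HXT6 at 3.55 and HXT7 at -0.89, and HXT4 of Y127 at 0.86 (adjusted p = 0.0985). HXT3 of Y22-3 lost its call without aerobic library A (0.27, adjusted p = 0.369) and without either anaerobic library (0.53 and 0.57). In Y127, HXT2 lost it without aerobic library B (-0.55, adjusted p = 0.230) or anaerobic library A (-0.96), HXT4 without aerobic library A (0.52, adjusted p = 0.273) or anaerobic library B (1.06), and HXT7 without aerobic library A (-0.53, adjusted p = 0.171) or anaerobic library A (-0.74).

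The response to oxygen on xylose was then set against that of another strain by an interaction term, whose SE was 0.51 for HXT2 and HXT4, 0.34 for HXT3, 0.42 for HXT6 and 0.38 for HXT7. Between Y128 and Y22-3, 3 rows differed, all with the higher change in Y128, beside 78.3% of all genes. HXT2 differed by 6.01 (adjusted p = 2.71e-09, limma), HXT4 by 3.14 (adjusted p = 1.21e-05) and HXT3 by 0.91 (adjusted p = 0.0196), with a median of 0.91 over the 5 rows and of 1.25 over all genes. After centring, HXT2 was at 4.85 (adjusted p = 1.68e-06) and HXT4 at 1.98 (adjusted p = 0.00888), while HXT3 turned to -0.25 (adjusted p = 0.538). HXT3 also lost its call without Y22-3 aerobic library B (0.64), Y128 aerobic library A (0.69) or Y128 anaerobic library B (0.52, adjusted p = 0.168). HXT6 and HXT7, at -0.40 and 0.09, were not called, and after centring they were at -1.56 and -1.07 (adjusted p = 0.00624 and 0.0129). Their sum was at 0.45 (adjusted p = 0.362) and after centring at -0.72 (adjusted p = 0.169).

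Between Y127 and Y22-3 all 5 rows differed, 4 higher and 1 lower, beside 74.2% of all genes. HXT2 differed by 3.35 (adjusted p = 7.54e-06, limma), HXT4 by 2.44 (adjusted p = 0.000230), HXT7 by 1.24, HXT3 by 0.78 and HXT6 by -0.98 (adjusted p = 0.00660, 0.0442 and 0.0432), around a median of 1.24 over the 5 rows and of 1.35 over all genes. After centring, HXT2 was at 1.96 (adjusted p = 0.00907) and HXT6 at -2.37 (adjusted p = 0.000299), HXT4 at 1.05 (adjusted p = 0.154), and HXT3 and HXT7 turned to -0.61 and -0.16 (adjusted p = 0.145 and 0.725). The sum of HXT6 and HXT7 differed by 1.17 (adjusted p = 0.0231), which centring turned to -0.23 (adjusted p = 0.683). HXT6 lost its call without any 1 of the 8 libraries (-1.04 to -0.92, adjusted p up to 0.0950), and HXT3 without Y22-3 aerobic library B, Y127 aerobic library B, Y127 anaerobic library B or either Y22-3 anaerobic library (0.51 to 0.80, adjusted p up to 0.209). Between Y128 and Y127, 2 rows differed, beside 37.5% of all genes. HXT2 differed by 2.66 (adjusted p = 0.000448, limma) and HXT7 by -1.15 (adjusted p = 0.0230), with a median of 0.58 over the 5 rows and of -0.20 over all genes. HXT7 lost its call without library B of Y127 or Y128, aerobic or anaerobic (-1.12 to -0.87, adjusted p up to 0.114), and the sum of HXT6 and HXT7 was at -0.72 (adjusted p = 0.211). HXT4, at 0.69 (adjusted p = 0.294), was called without Y127 aerobic library A (1.28, adjusted p = 0.0497).

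Strains were then compared within anaerobic xylose, where Y128 grew and the other strains did not. Against Y22-3, HXT2 was 48.8-fold higher in Y128 (log2 change 5.61, 95% interval 4.85 to 6.36, adjusted p = 1.15e-11, limma) and HXT4 19.3-fold higher (4.27, 3.53 to 5.02, adjusted p = 6.01e-10). HXT6 was 2.09-fold higher (1.07, adjusted p = 0.00253). These 3 rows were called beside 85.9% of all genes, and all 3 were higher in Y128. HXT3 and HXT7 were at 0.28 and 0.34 (95% intervals -0.22 to 0.79 and -0.22 to 0.91, adjusted p = 0.275 and 0.242). The 5 rows had a median of 1.07, beside 1.04 over all genes. After centring, HXT2 and HXT4 were at 4.74 and 3.41 (adjusted p = 1.42e-08 and 1.58e-06), HXT6 at 0.20 (adjusted p = 0.579), HXT7 at -0.53 (adjusted p = 0.0648) and HXT3 at -0.58 (adjusted p = 0.0402), so that the call for HXT6 was lost and HXT3 turned. HXT3 was at 0.67 (adjusted p = 0.0241) without Y128 library A. The sum of HXT6 and HXT7 was at 0.83 (adjusted p = 0.0185) and after centring at -0.04 (adjusted p = 0.921).

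Against Y127, which does not grow there either, all 5 rows were called in Y128, 3 higher and 2 lower, beside 56.2% of all genes. HXT2 was 30.2-fold higher (log2 change 4.92, adjusted p = 1.27e-09, limma) and HXT4 11.9-fold higher (3.57, adjusted p = 8.51e-08), whereas HXT6 and HXT7 fell, with changes of -1.23 and -1.21 (adjusted p = 0.00162 and 0.000788) and their sum with a change of -1.23 (adjusted p = 0.00246). HXT3 was higher by 0.72 (adjusted p = 0.0152), a call lost without Y127 library A (0.55) or Y128 library B (0.33, adjusted p = 0.316). The median of the 5 rows was 0.72, beside -0.08 over all genes. Between Y127 and Y22-3, HXT6 was higher in Y127 by 2.30 and HXT7 by 1.55 (adjusted p = 5.87e-07 and 2.46e-05, limma), the 2 rows called beside 81.6% of all genes, and their sum by 2.06 (adjusted p = 4.67e-06), or 1.09 after centring (adjusted p = 0.00594). HXT2, HXT3 and HXT4 were at 0.69, -0.44 and 0.70 (adjusted p from 0.0762 to 0.0977). When the compared libraries were fitted alone, HXT2 and HXT4 were called (adjusted p = 0.0148 and 0.0187, limma). Centring moved HXT6 and HXT7 to 1.33 and 0.58, HXT2 and HXT4 to -0.28 and -0.27, and HXT3 to -1.41 (adjusted p = 7.39e-05), which was then called, around a median of 1.13 over all genes and of 0.70 over the 5 rows.

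In aerobic xylose, 4 rows were called in Y127 against Y22-3, beside 49.0% of all genes. HXT6 was 9.67-fold higher in Y127 (log2 change 3.27, adjusted p = 3.98e-08, limma), and HXT2, HXT4 and HXT3 fell, with changes of -2.66, -1.74 and -1.22 (adjusted p = 7.44e-06, 0.000596 and 0.000398). HXT7 was at 0.31 (95% interval -0.25 to 0.88, adjusted p = 0.349), called after centring (0.74, adjusted p = 0.0255), and the sum of the pair was higher by 0.89 (adjusted p = 0.0244). Y128 differed from Y127 in 2.43% of all genes, and in 3 of the 5 rows. HXT4 was 7.34-fold higher in Y128 (2.88, adjusted p = 9.30e-05, limma), HXT2 4.79-fold higher (2.26, adjusted p = 0.000957) and HXT6 lower (-1.81, adjusted p = 0.00137), while the sum of HXT6 and HXT7 was at -0.51 (adjusted p = 0.506). Y128 differed from Y22-3 in 3 rows, beside 47.5% of all genes. HXT6 was higher by 1.46 and HXT4 by 1.13, and HXT3 fell by 0.63 (adjusted p = 0.000488, 0.0138 and 0.0373, limma). The HXT3 call was lost after centring (-0.34) and without Y22-3 library B (-0.35) or Y128 library A (-0.41), that of HXT4 without library A of Y22-3 (0.85) or Y128 (1.03), and the sum of HXT6 and HXT7 was at 0.39 (adjusted p = 0.328). The median of the 5 rows was -1.22, 0.59 and 0.25 in these comparisons, beside -0.34, 0.14 and -0.22 over all genes.

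On glucose, between Y127 and Y22-3, 0 of the 5 rows were called with or without oxygen by limma, beside 2.67% and 1.88% of all genes. The largest differences were in HXT4 with oxygen (1.20, 95% interval 0.45 to 1.95, adjusted p = 0.0932) and in HXT6 without (1.06, 0.43 to 1.68, adjusted p = 0.0749). HXT4 with oxygen, HXT7 with oxygen, HXT4 without and HXT6 without had an unadjusted p under 0.05 by limma. HXT4 with oxygen was called when the compared libraries were fitted alone (adjusted p = 0.0176, limma). The sum of HXT6 and HXT7 was at 0.59 with oxygen and 0.95 without (adjusted p = 0.604 and 0.125). Without oxygen HXT6 was called after centring (1.23, adjusted p = 0.0429) and without Y22-3 library B (1.73) or 1 Y127 library (1.48), and HXT4 without Y22-3 library B (1.49, adjusted p = 0.0398). Y128 differed from Y22-3 in 2 rows with oxygen, beside 20.4% of all genes, and in 2 without, beside 20.5%. With oxygen HXT7 was 10.2-fold lower (-3.35, adjusted p = 2.73e-08, limma) and HXT4 3.73-fold lower (-1.90, adjusted p = 0.000690), and the sum of HXT6 and HXT7 was lower too (-2.58, adjusted p = 5.63e-06). Without oxygen HXT2 was higher by 1.64 (adjusted p = 0.00296, limma) and HXT6 by 1.53 (adjusted p = 0.00109), and the sum of the pair by 1.31 (adjusted p = 0.00538). The call for HXT2 was lost without Y22-3 library B (1.12, adjusted p = 0.0734). For Y127 the 5 rows had a median of 0.08 with and 0.32 without oxygen, and for Y128 of -0.26 and 0.31, beside -0.06, -0.18, -0.16 and -0.13 over all genes.

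The order of HXT6 and HXT7 changed with oxygen. In all 12 duplicated aerobic libraries HXT7 was the higher row, with HXT6 minus HXT7 from -4.26 to -0.17 (median -2.94). In all 12 duplicated anaerobic libraries HXT6 was the higher, with a difference of 0.50 to 3.81 (median 1.66). The difference was nearest 0 in Y128 in aerobic glucose, at -0.17 and -0.23, the group in which each gene had its lowest mean. On xylose with oxygen the strains lay apart, at -3.68 and -3.70 in Y22-3, -2.66 and -2.29 in Y128 and -0.96 and -0.49 in Y127. This order did not hold in all single libraries. Y22-3 in anaerobic galactose and anaerobic sorbitol had the higher HXT7, at -1.21 and -1.12, and Y128 in aerobic sorbitol the slightly higher HXT6, at 0.21. No test of the difference was made, since both rows can hold the same reads.

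**Figure D4:**
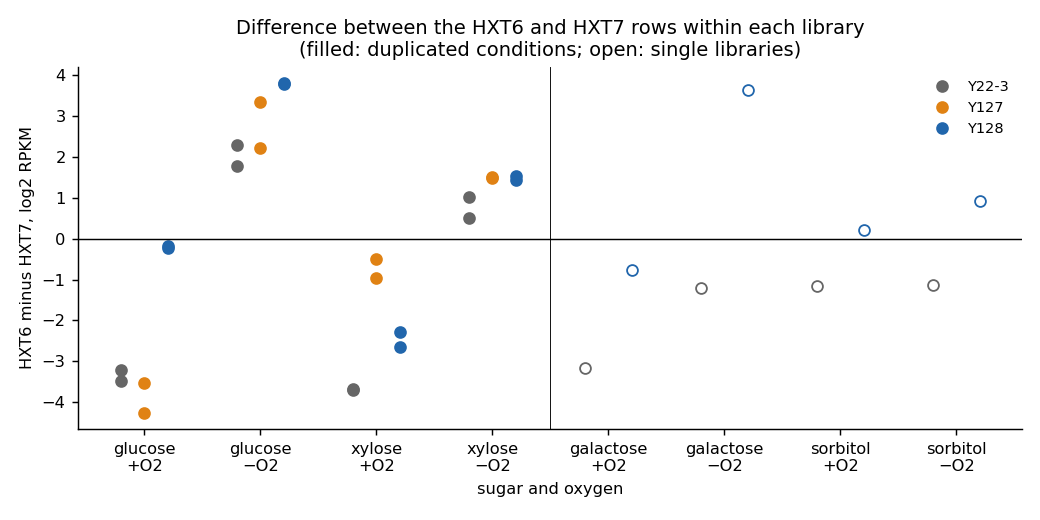
HXT6 minus HXT7 (log2 RPKM, vertical axis) within each of the 32 libraries, by sugar and oxygen and coloured by strain, with filled points for duplicated conditions and open points for single libraries. All 12 filled aerobic points lie below 0, from -4.26 to -0.17, and all 12 filled anaerobic points above it, from 0.50 to 3.81.

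The libraries in galactose and sorbitol have no duplicates, and their values carry no test. Galactose is a fermentable hexose that causes little glucose repression, and Gal2, its own transporter, belongs to the same family. In galactose HXT6 and HXT7 were high, HXT7 at 11.82 in Y22-3 and 11.42 in Y128 with oxygen and at 11.27 and 8.55 without, and HXT6 at 8.65 and 10.65 with oxygen and at 10.06 and 12.20 without. HXT3 was at 2.03 and 2.43 with oxygen, and at 5.23 in Y22-3 and 2.87 in Y128 without. HXT2 was at 7.33 and 6.86 with oxygen, and at 5.86 in Y22-3 and 9.09 in Y128 without, again with the higher value in Y128. HXT4 was at 0.44 and 0.99 with oxygen and at 3.07 and 2.52 without. Against the mean of glucose in the same strain and oxygen condition, HXT3 was lower in all 4 galactose libraries, by values of -8.55 to -6.28, HXT2 and HXT4 were lower in all 4, and HXT6 and HXT7 higher in all 4, by 3.26 to 8.54.

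Sorbitol is not used by these cultures for growth. With oxygen HXT7 was at 8.52 in Y22-3 and 8.99 in Y128, HXT6 at 7.36 and 9.20, HXT2 at 6.36 and 7.58, HXT3 at 4.72 and 3.98 and HXT4 at 3.02 and 2.90. Without oxygen Y22-3 held the highest value of the family, HXT7 at 14.19, with HXT6 at 13.07, HXT2 at 9.51, HXT3 at 4.91 and HXT4 at 4.15. Y128 held the highest HXT2 of all 32 libraries, 12.52, with HXT6 at 12.50, HXT7 at 11.58, HXT3 at 7.78 and HXT4 at 7.0. The summed RPKM of the 5 rows was 28091 in Y22-3 and 15040 in Y128, above every glucose and xylose group, in libraries where the median of the genes tested was 2.06 and 2.73. After centring, HXT4 of Y22-3 against anaerobic glucose turned from -0.48 to 2.02, and HXT2 went from 0.93 to 3.42. HXT2, HXT3 and HXT4 were higher in Y128 than in Y22-3 in anaerobic sorbitol, where neither strain grew, and HXT6 and HXT7 were lower. With 1 library each, this has no replicate check.

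Of the 10 other transporters listed (HXT8 to HXT11, HXT13 to HXT17 and GAL2), HXT10, HXT14 and GAL2 have a row here, and only GAL2 passed the filter. GAL2 was at 11.18 to 12.13 in the 4 galactose libraries and at -5.11 to 4.0 in the other 28, and HXT10 and HXT14 were at 1.65 or below in every library. In the comparisons of glucose and xylose GAL2 stayed at or below 3.54, and between Y128 and Y22-3 in anaerobic xylose it was at -0.57 (SE 0.72, adjusted p = 0.466, limma). At these low levels it was called in other comparisons. Without oxygen on xylose it was higher by 3.81 in Y127 and 3.56 in Y128, and at 0.50 in Y22-3, not called. On glucose it was higher without oxygen by 1.79, 1.72 and 3.39 in Y22-3, Y127 and Y128. Between Y128 and Y22-3 in aerobic xylose the change was -3.62.

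Of the 15 genes listed as regulators of the family, all were tested. On xylose against glucose, 2 to 4 were higher and 4 to 10 lower by strain and oxygen condition, beside 38.8% to 86.6% of all genes. The 4 higher and 10 lower of Y22-3 without oxygen stood beside 86.6%, and after centring they became 5 higher and 6 lower. Of the 5801 genes tested, 2341 were then higher and 2665 lower. In Y128 against Y22-3 in anaerobic xylose all 15 were called, 9 higher and 6 lower, beside 85.9% of all genes. After centring 11 were, 5 higher and 6 lower, beside 2709 higher and 2391 lower of the 5801 genes. HXK2, the hexokinase that takes part in glucose repression, differed most. It was at 5.66 and 5.16 (Y22-3), 7.55 and 7.53 (Y127) and 9.65 and 9.49 (Y128), a change of 4.16 (SE 0.34, adjusted p = 3.92e-10, limma). MIG2, a glucose repressor, was at 0.84 and 0.82, 1.52 and 1.74, and 4.27 and 4.58, a change of 3.60 (SE 0.17, adjusted p = 1.48e-13), and RGT1 at 6.84 and 6.91, 4.69 and 5.21, and 3.43 and 3.39, a change of -3.47 (SE 0.17, adjusted p = 1.89e-13). These genes were named for their change between Y128 and Y22-3, so the gap between those strains follows from that choice. In each of them the Y127 libraries lay between those of the other strains. MTH1, the co-repressor of Rgt1, ranged from 7.66 to 7.77 in Y22-3, from 6.13 to 6.61 in Y127 and from 6.12 to 6.33 in Y128, a change of -1.49 (SE 0.21, adjusted p = 1.59e-06). In aerobic glucose MTH1 was at 1.22 to 1.27 in Y128 and 2.95 to 3.01 in Y22-3 (-1.73, adjusted p = 6.26e-06, limma), in the group where HXT7 and HXT4 were also low. Over all genes the median change between these strains in anaerobic xylose was 1.04. After centring, HXK2 was at 3.29, MIG2 at 2.73, RGT1 at -4.33 and MTH1 at -2.36, all still called (adjusted p at most 9.00e-08). Transcript levels say nothing of the amount or activity of these proteins.

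The genes other than HXT1 to HXT7 whose levels were most like those of a member were ranked by Pearson correlation over the 32 libraries, which share depth and growth conditions, as a description. HXT3 was most like MIG3 (0.91), a repressor of the Mig family, STD1 (0.89), the paralog of MTH1, and YAR047C (0.86). HXT6 was most like SUC2 (0.93), the invertase gene, ZNF1 (0.91), a transcription factor, and HXK1 (0.89), a hexokinase. HXT7 was most like CIT1 (0.87), the mitochondrial citrate synthase, the strain gene GTK30K00190 (0.84) and ODC1 (0.83), a mitochondrial carrier. For HXT2 the nearest were YGR137W and ALD6 (0.74 each), the latter an aldehyde dehydrogenase, and YOR385W (0.73), and for HXT4 MIG2 (0.64), TPO2 (0.61), a polyamine exporter, and PFK27 (0.58). HXT3 and HXT7 ran opposite to each other, with a correlation of -0.86, and HXT6 and HXT7 together, with 0.73. Over the 24 duplicated libraries, MIG3 and STD1 ranked 5 and 2 for HXT3 and SUC2 and ZNF1 ranked 3 and 1 for HXT6, while the genes named for HXT2, HXT4 and HXT7 ranked between 13 and 136.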

How the data were processed

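Duplicate libraries came from cultures grown on different days. RNA was depleted of rRNA and sequenced from stranded libraries as single-end reads of 100 bases. The authors trimmed the reads (Trimmomatic), mapped them to the Y22-3 genome (Bowtie 2, version 2.2.2, default settings), counted them per gene (HTSeq, version 0.6.0) and deposited log2 RPKM values, the unit used here. The 4 columns of Y127 on glucose carry the same replicate letter, so their condition is known and their letter is not. Fold changes are on the deposited scale, which understates changes of low genes.

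The values of the 24 glucose and xylose libraries were fitted with limma 3.58.1 (R 4.3.3), with 12 group means and a trend of the variance on expression, for the 5801 genes whose RPKM averaged at least 1. P-values are two-sided, adjusted by Benjamini-Hochberg and called under 0.05. With 2 libraries a group, no permutation could reach this threshold, and p-values rest on the variance shared across genes. The 25 comparisons were repeated under other scalings, added constants, filters, variance models and sample choices. Centred values of the HXT6 and HXT7 sum and of the regulators were added after seeing the data.

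Genes were named by a rule: all members, GAL2, MTH1 and the 3 called regulators with the largest change between Y128 and Y22-3 in anaerobic xylose, the 3 genes most correlated with each member, and GAL1 and ANB1 to check the labels. Members and lists were chosen with earlier results of these data known. Sequences and lengths are from RefSeq, S288C assembly R64, joined by systematic name, which matched all 5 members. Python 3.11.15, numpy 2.4.6, pandas 2.3.3 and matplotlib 3.10.9 were used.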

Additional observations from a re-analysis of the deposited data

Results flagged for a closer look

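The response to loss of oxygen on xylose differed between strains for 10 pairs of gene and strains. These calls are from the interaction term of limma, adjusted over 5801 genes. Such calls were common over all genes, at 74.2% (Y127 with Y22-3), 78.3% (Y128 with Y22-3) and 37.5% (Y128 with Y127). Whether the transporter rows were called more often than other genes was not tested. Between Y127 and Y22-3 the difference in log2 change was 3.35 for HXT2, 2.44 for HXT4, 1.24 for HXT7, 0.78 for HXT3 and -0.98 for HXT6. Between Y128 and Y22-3 it was 6.01 for HXT2, 3.14 for HXT4 and 0.91 for HXT3. Between Y128 and Y127 it was 2.66 for HXT2 and -1.15 for HXT7. Only for HXT2 was the interaction called in all 3 pairs of strains, and it stayed called after each library was centred on its median (1.96, 4.85 and 2.89). After centring, HXT4 stayed called between Y128 and Y22-3 (1.98) and not between Y127 and Y22-3 (1.05), HXT3 turned to -0.61 and -0.25 in its pairs, neither called, HXT7 turned to -0.16 between Y127 and Y22-3, not called, and HXT6 was at -2.37. HXT6 lost its call without any 1 of the 8 libraries and turned to 1.17 as a sum with HXT7, and HXT3 and the HXT7 difference of Y128 from Y127 lost theirs without some libraries. HXT2 itself fell in Y22-3 and Y127 and rose in Y128, and the fall in Y127 lost its call without aerobic library B (-0.55) or anaerobic library A (-0.96). HXT4 fell in Y22-3, which was not called after centring (-0.19, adjusted p = 0.702), and rose in Y128 and in Y127, where the call was lost after centring (0.86) and without aerobic library A (0.52) or anaerobic library B (1.06). The culture of Y128 grew in anaerobic xylose and those of Y22-3 and Y127 did not, so the strain, its growth and its inoculation cannot be told apart.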

How the results depend on the processing

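The changes of each gene were refitted under other settings, and 25 comparisons of 5 rows give 125 values for each, or 100 where the setting could be fitted in part. All 125 kept their side of the threshold, with no turn of a value called in either fit, without the filter, 124 with log2(RPKM + 1), 122 without a variance trend, 112 with the compared libraries alone, 110 with HXT6 and HXT7 summed and 109 after centring. When a library was left out, 511 of the values kept both, 43 lost the call and 6 gained it. With HXT6 and HXT7 summed, the oxygen change on glucose turned for HXT7 to 0.76 in Y22-3 and 1.11 in Y127. On xylose it turned for HXT6 to -0.72 in Y22-3 and -0.28 in Y128 and for HXT7 to 0.44 in Y127. HXT7 between Y128 and Y22-3 in anaerobic glucose turned to 1.31, and the HXT6 interaction of Y127 with Y22-3 to 1.17. Here the sum replaces both rows, so 1 of 2 opposed rows must turn. The sum leaves the values of HXT2, HXT3 and HXT4 as they were, so only those of HXT6 and HXT7 could move. Of these, 7 turned, and without a turn 5 lost the call and 3 gained it. After centring, HXT3 between Y128 and Y22-3 in anaerobic xylose turned to -0.58, the interactions of Y127 with Y22-3 to -0.61 for HXT3 and -0.16 for HXT7, and those of Y128 with Y22-3 to -0.25 for HXT3 and -1.07 for HXT7. Centring moves every gene of a library by the same amount. Applied to the sum of HXT6 and HXT7, a setting chosen after seeing the data, it turned the oxygen change on xylose in Y22-3 to 0.43, Y128 against Y22-3 in anaerobic xylose to -0.04 and the interaction of Y127 with Y22-3 to -0.23, and it ended the call for oxygen on glucose in Y22-3 (0.48).

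The number of rows called moved by over 1.5 times in these cases, and apart from merged rows the cause was not tested. With HXT6 and HXT7 summed only 4 rows were counted, since the pair makes 1 row. The number called was then 3 for oxygen on xylose in Y127 and 3 in Y128. It was 1 for the interaction of Y128 with Y127 and 1 between Y127 and Y22-3 in anaerobic xylose. In the latter, HXT6 and HXT7 were the 2 rows called and their sum stayed called (2.06), so only the merging lowered the count. With the compared libraries alone the number called was 4 between Y127 and Y22-3 in anaerobic xylose and 1 between the same strains in aerobic glucose. It was 1 between Y128 and Y22-3 in anaerobic glucose and 3 for the interaction of Y127 with Y22-3. After centring it was 1 between Y127 and Y22-3 in anaerobic glucose and 2 for their interaction, and without a variance trend 3 for that interaction. With 1 library left out, where the lone library is assumed to vary like the other groups, it ranged from 3 to 4 in Y127 for oxygen on xylose, from 1 to 3 between Y128 and Y22-3 in aerobic xylose, from 0 to 2 between Y127 and Y22-3 and from 1 to 2 between Y128 and Y22-3 in anaerobic glucose, from 3 to 4 for the interaction of Y127 with Y22-3 and from 1 to 3 for that of Y128 with Y127. For the groups with both letters A and B, the deviations correlated at -0.11 to 0.33 (median 0.01) over 45 pairs of groups. Of these pairs, 7 had a correlation over 0.1. Whether libraries with the same letter share a culture day was not tested. A fit with the replicate block kept 99 of 100 values and gained a call for HXT4 between Y127 and Y22-3 in anaerobic xylose (0.70, adjusted p = 0.0282, limma), and could not be fitted where Y127 glucose libraries enter. The lowest member value, HXT4 in a single galactose library that entered no test, rests on about 21 reads. Among the tested libraries the lowest HXT4 value stands for about 80 reads and the lowest HXT3 value for about 93, both from Y127 in aerobic xylose.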
